A study of Mus musculus with 92 samples.

Results

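The acute phase response genes are 37 genes listed by name for this report, most of them liver genes for plasma proteins, with some of the receptors, signalling factors and metal-binding proteins that go with them. They were found by symbol, and 33 of the 37 had usable counts in the table of 51912 gene lines, of which 17275 were filled under every library. All 33 passed the filter on low counts, among 12617 genes tested. Saa1, Orm2, Serpina3m and Cebpd had no usable counts and appear only with the authors' deposited fold changes.

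RNA was sequenced from the livers of HET3 mice, a genetically heterogeneous stock bred from several inbred strains, after a 16-hour fast. The groups compared here are females killed at 24 months on Low Isoleucine (8 livers), Low Amino Acid (7 livers) and Control (8 livers) diets, and females killed at 6 months on Low Isoleucine (7 livers), Low Amino Acid (8 livers) and Control (8 livers) diets. Low Amino Acid lowers all dietary amino acids and Low Isoleucine lowers that one alone. None of the groups carries a named allele or transgene, and each mouse of such a cross has its own genotype. The sample labels put the start of the diets at 9 weeks in the 6-month animals and at 6 months in the 24-month animals, while the series description gives 13 weeks on diet for all of them. Age, starting age and time on diet therefore cannot be told apart. Libraries held 7.82 to 27.6 M counts with a median of 22.6 M. The shallowest, at 7.82 M, was replicate 5 among the 24-month Low Isoleucine livers, and the next one held 14.3 M. One library labelled 6-month female Low Isoleucine was left out because the Y-linked gene Kdm5d stood at 50.8 CPM there, against at most 0.639 CPM in the other female libraries. CPM are counts scaled to a common library total, with TMM between libraries. Each library is treated as 1 animal, and nothing in the labels says that litters or cages were balanced.

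The acute phase response is the change in plasma proteins that the liver makes when tissue is infected or injured. Macrophages release interleukin-6, interleukin-1 and tumour necrosis factor, and hepatocytes answer interleukin-6 mainly through the transcription factor STAT3, with C/EBP and NF-kB factors acting beside it. Serum amyloids, orosomucoids, haptoglobin, hemopexin and the fibrinogen chains are then made in larger amounts, and SOCS3 feeds back on the signal. Mouse Crp, unlike human CRP, is a weak acute phase gene.

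The promoters of 5 genes are shown so that Saa2 and Steap4, which changed strongly with age and with diet, a fibrinogen chain, and the hepcidin pair, whose fitted age differences had opposite signs, can be compared letter by letter. They are the 250 bases before the RefSeq start on GRCm38.p6, written 5′ to 3′ on the strand of the gene, with capitals for a match to the STAT3 letters TTCNNNGAA or the C/EBP letters TTNNGCAA on either strand. The windows are chr7:46751583-46751832 on the plus strand for Saa2, chr5:7960222-7960471 on the plus strand for Steap4, chr3:83049864-83050113 on the minus strand for Fgb, chr7:30944030-30944279 on the minus strand for Hamp and chr7:30924182-30924431 on the minus strand for Hamp2.
Saa2: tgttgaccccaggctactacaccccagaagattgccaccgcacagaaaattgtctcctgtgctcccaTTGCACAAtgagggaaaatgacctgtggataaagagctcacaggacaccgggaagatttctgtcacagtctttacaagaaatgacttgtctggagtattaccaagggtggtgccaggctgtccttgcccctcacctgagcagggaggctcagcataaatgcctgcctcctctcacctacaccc
Steap4: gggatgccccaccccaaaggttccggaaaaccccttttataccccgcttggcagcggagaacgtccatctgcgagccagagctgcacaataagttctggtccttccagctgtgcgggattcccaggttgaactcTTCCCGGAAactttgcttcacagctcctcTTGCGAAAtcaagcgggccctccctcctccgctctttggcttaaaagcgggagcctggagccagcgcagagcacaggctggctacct
Fgb: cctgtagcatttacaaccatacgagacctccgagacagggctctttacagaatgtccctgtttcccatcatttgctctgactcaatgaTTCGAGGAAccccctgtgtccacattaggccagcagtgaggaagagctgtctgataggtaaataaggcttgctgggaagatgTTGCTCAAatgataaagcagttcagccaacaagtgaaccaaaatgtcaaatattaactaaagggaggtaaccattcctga
Hamp: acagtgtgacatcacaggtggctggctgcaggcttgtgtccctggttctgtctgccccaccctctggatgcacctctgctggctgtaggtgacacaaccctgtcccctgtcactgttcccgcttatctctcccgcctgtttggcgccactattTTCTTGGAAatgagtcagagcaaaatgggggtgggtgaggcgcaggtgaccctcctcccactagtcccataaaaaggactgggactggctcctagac
Hamp2: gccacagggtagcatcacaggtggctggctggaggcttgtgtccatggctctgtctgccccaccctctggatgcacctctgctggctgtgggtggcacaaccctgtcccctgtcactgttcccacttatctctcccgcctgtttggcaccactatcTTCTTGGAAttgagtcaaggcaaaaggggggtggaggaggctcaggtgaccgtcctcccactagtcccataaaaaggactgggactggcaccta

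The capitals stand 183 to 176 bases before the start in Saa2, where they match C/EBP. Steap4 has a STAT3 match at 116 to 108 bases and a C/EBP match at 87 to 80 bases before its start. Fgb has a STAT3 match at 162 to 154 bases and a C/EBP match at 80 to 73 bases. The hepcidin genes Hamp and Hamp2 carry the same STAT3 letters at 97 to 89 and at 94 to 86 bases, and their windows were identical at 227 of 253 aligned columns (89.7%). RefSeq promoters were matched for 29 of the 37 genes. Of these, 8 held the STAT3 letters, namely Apcs, Fga, Fgb, Steap4, Hamp, Hamp2, Socs3 and Itih4, against 7.02% of all 32851 promoters of that length. The C/EBP letters stood in 14 of the 29, against 9.56% of all promoters, and the NF-kB letters GGANTTNCC stood in 0 of the 29, against 3.15%. The 29 genes have 33 promoters, and a gene was counted if any of its promoters matched, while the shares over all are per promoter. A match describes letters only.

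In females on the Control diet the acute phase genes were higher at 24 than at 6 months. Of the 33 genes, 25 rose and 0 fell (edgeR's quasi-likelihood test, Benjamini-Hochberg adjusted p under 0.05 over all genes tested), while 16.6% of all genes tested rose. The median fitted log2 fold change was 1.59 over the 33 genes and 0.03 over all genes tested, and 29 of the 33 lay above 0. Saa2, Saa3, lipocalin 2, the fibrinogen chains, haptoglobin and hemopexin were among those that rose. The levels of the 24-month and 6-month Control livers overlapped for every one of the 33 genes. Overlap was not counted over all genes. With limma's voom and a spread for each group 20 of the 33 rose, against 9.57% of all genes tested. Fitted fold changes compare group means, so a few high libraries weigh heavily in them. This is bulk tissue, in which more cells of a type and more RNA per cell cannot be told apart.

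**Figure D1:**
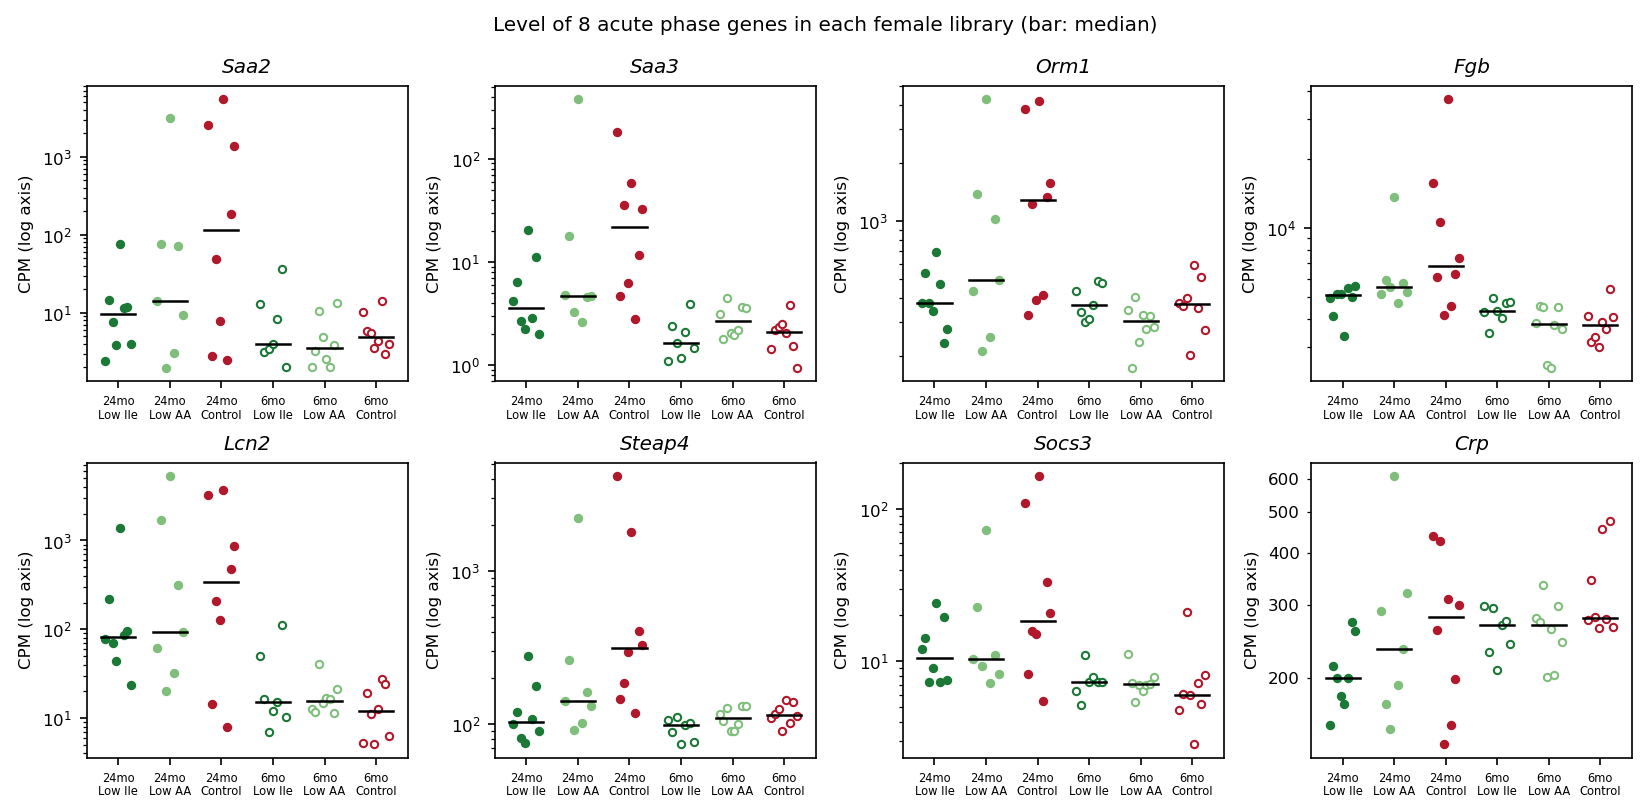
Level in CPM on a log axis of 8 acute phase genes in each of 46 female libraries, by age and diet, with a bar at each group's median. In 24-month Control livers Saa2 lay between 2.48 and 5446 CPM, while the 6-month Control livers lay between 2.93 and 14.2 CPM.

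The serum amyloids A are small apolipoproteins of high-density lipoprotein, and some of them are strongly inducible acute phase proteins of the mouse. Saa2 lay between 2.39 and 76.6 CPM (median 9.66) in 24-month Low Isoleucine livers, between 1.96 and 3176 CPM (median 14.3) in Low Amino Acid livers and between 2.48 and 5446 CPM (median 117) in Control livers. In 6-month Control livers it lay between 2.93 and 14.2 CPM (median 4.91). Of the 24-month Control livers, 5 of 8 stood above every 6-month Control liver and the other 3 stood inside or below their range. Saa2 rose with age in Control livers by 7.59 on the log2 scale (SE 1.49, adjusted p = 0.000443). Against Control, Low Isoleucine livers of 24 months had it lower by 6.23 (SE 1.40, adjusted p = 0.00541). Saa2 shares 93.9% of its transcript letters with Saa1, so reads of the pair may have been split, and its values are uncertain in that respect.

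Saa3, the serum amyloid made outside hepatocytes as well as in them, lay between 2.01 and 20.6 CPM (median 3.54) in 24-month Low Isoleucine livers, between 2.61 and 376 CPM (median 4.71) in Low Amino Acid livers and between 2.78 and 182 CPM (median 22.0) in Control livers. Levels in 6-month Control livers lay between 0.935 and 3.81 CPM (median 2.10). Here 7 of the 8 livers of 24-month Controls were above every 6-month Control liver. Saa3 rose with age in Control livers by 4.33 (SE 0.899, adjusted p = 0.000706) and fell on Low Isoleucine by 2.74 (SE 0.821, adjusted p = 0.0351). Saa4, the serum amyloid that is made constitutively, behaved otherwise. It lay between 110.0 and 233 CPM (median 147) in 24-month Low Isoleucine livers, between 136 and 1775 CPM (median 226) in Low Amino Acid livers and between 211 and 1549.6 CPM (median 305) in Control livers, against 231 to 341 CPM (median 263) in 6-month Control livers. Its age difference in Control livers was 0.87 and was not called (SE 0.377, adjusted p = 0.0772), while on Low Isoleucine at 24 months it fell by 1.64 (SE 0.384, adjusted p = 0.00782). In Saa4, 7 of the 8 livers of 24-month Low Isoleucine animals stood below every 6-month Control liver. Most 6-month livers on the restricted diets did so too. Saa4 lay there between 126 and 247 CPM (median 193) on Low Isoleucine and between 176 and 282 CPM (median 191) on Low Amino Acid.

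Lcn2 encodes lipocalin 2, which withholds bacterial iron carriers and is made by hepatocytes and neutrophils. It lay between 23.2 and 1380.1 CPM (median 82.4) in 24-month Low Isoleucine livers, between 20.3 and 5335 CPM (median 92.1) in Low Amino Acid livers and between 7.87 and 3732 CPM (median 342) in Control livers. In the 6-month Control group the range was 5.03 to 27.5 CPM (median 11.9). Lcn2 rose with age in Control livers by 6.29 (SE 1.19, adjusted p = 0.000329), with 6 of 8 livers above every 6-month Control liver. Its difference between Low Isoleucine and Control livers of 24 months was -2.12 and was not called (SE 0.983, adjusted p = 0.191). There 7 of 8 Low Isoleucine livers still stood above every 6-month Control liver.

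Among the abundant plasma glycoproteins, Orm1, an orosomucoid that binds drugs and lipids, lay between 234 and 694 CPM (median 376) in 24-month Low Isoleucine livers, between 212 and 4283 CPM (median 492) in Low Amino Acid livers and between 327 and 4226 CPM (median 1283) in Control livers. The 6-month Control livers lay between 203 and 594 CPM (median 370.0). It rose with age in Control livers by 2.11 (SE 0.464, adjusted p = 0.00109) and fell on Low Isoleucine at 24 months by 2.01 (SE 0.462, adjusted p = 0.00661). The 24-month Low Isoleucine median was close to the 6-month Control median. Orm3 was low, with 1.42 to 58.4 CPM in 24-month Control livers, and was called in neither comparison. Transcripts of Orm1 share 91.0% of their letters with Orm2 and 86.1% with Orm3, so counts within the family are uncertain.

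Haptoglobin, which binds free haemoglobin, lay between 3187 and 10787 CPM (median 4191) for Hp in 24-month Low Isoleucine livers, between 2480 and 20197 CPM (median 3803) in Low Amino Acid livers and between 3028 and 18732 CPM (median 6356) in Control livers. At 6 months Control livers lay between 2120.0 and 3636 CPM (median 2563). Hp rose with age in Control livers by 1.72 (SE 0.360, adjusted p = 0.000722), and its difference on Low Isoleucine, -0.86, was not called (SE 0.352, adjusted p = 0.131). Hemopexin, which binds free haem, did pass the test in both. Hpx lay between 3254.5 and 8074 CPM (median 3621) in 24-month Low Isoleucine livers, between 3211 and 19273 CPM (median 3854) in Low Amino Acid livers and between 3071 and 22642 CPM (median 10147) in Control livers, against 2680.2 to 4041.5 CPM (median 3226) in 6-month Control livers. Hpx rose with age in Control livers by 1.69 (SE 0.333, adjusted p = 0.000441) and fell on Low Isoleucine by 1.34 (SE 0.330, adjusted p = 0.0103). Per kilobase of transcript, Hpx had the highest mean level of the 33 genes in 24-month Control livers, at 7208 CPM per kb, followed by Fga at 6863 CPM per kb and Hp at 6530 CPM per kb.

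The fibrinogen chains Fga, Fgb and Fgg, which form the clotting protein together, moved alike. Fga rose with age in Control livers by 1.85, Fgg by 1.70 and Fgb by 1.59. The same genes fell on Low Isoleucine at 24 months, by 1.39, 1.34 and 1.25, each with an adjusted p of 0.00569 or less. Fgb lay between 3367 and 5537 CPM (median 5062.5) in 24-month Low Isoleucine livers, between 4674 and 13639 CPM (median 5521) in Low Amino Acid livers and between 4156 and 36682 CPM (median 6834) in Control livers, against 2992 to 5382.5 CPM (median 3744.5) in 6-month Control livers. For each chain 6 of the 8 livers of 24-month Controls stood above every 6-month Control liver. Fgl1, a fibrinogen-like protein secreted by hepatocytes, rose with age in Control livers by 1.25 (SE 0.298, adjusted p = 0.00198), and its difference on Low Isoleucine was -0.92, just outside the threshold (adjusted p = 0.0507).

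Apcs, serum amyloid P and the pentraxin that serves as the main acute phase pentraxin of mice, lay between 251 and 478 CPM (median 335) in 24-month Low Isoleucine livers, between 392 and 1758 CPM (median 571.5) in Low Amino Acid livers and between 197.5 and 2847 CPM (median 898) in Control livers. The 6-month Control livers lay between 142 and 637 CPM (median 218). It rose with age in Control livers by 1.96 (SE 0.374, adjusted p = 0.000336) and fell on Low Isoleucine by 1.72 (SE 0.371, adjusted p = 0.00391). Its relative Crp did not pass the test in either comparison, with 155 to 273 CPM (median 200.4) in 24-month Low Isoleucine livers, 139 to 439.6 CPM (median 280.3) in 24-month Control livers and 264 to 476 CPM (median 279) in 6-month Control livers.

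Other secreted proteins also rose with age in Control livers. Lrg1, a leucine-rich glycoprotein, rose by 2.10. Serpina3n, a protease inhibitor, rose by 1.45, Itih3 and Itih4, heavy chains of an inhibitor that coats hyaluronan, by 1.38 and 1.14, Lbp, which carries lipopolysaccharide, by 1.2, and Cp, ceruloplasmin, by 0.95. Of these, Serpina3n, Itih4, Cp and Itih3 fell on Low Isoleucine at 24 months, by 1.47, 0.96, 0.85 and 0.84. Lrg1 and Lbp did not pass the test there, at -0.96 and -0.70. Serpina3k was called in neither comparison, with an age difference of -0.08. It shares 75.4% of its transcript letters with Serpina3n.

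Receptors and signalling genes were low in level and several rose. Cd14, the co-receptor for lipopolysaccharide on macrophages and stimulated hepatocytes, lay between 2.46 and 23.9 CPM (median 3.65) in 24-month Low Isoleucine livers, between 1.95 and 198.5 CPM (median 3.39) in Low Amino Acid livers and between 2.35 and 163 CPM (median 9.60) in Control livers. The 6-month Control livers lay between 1.63 and 5.91 CPM (median 2.33). Cd14 rose with age in Control livers by 3.34 (SE 0.811, adjusted p = 0.00242), and its difference on Low Isoleucine was -2.31 (adjusted p = 0.0616). Il1r1, the interleukin-1 receptor, had nearly equal medians of 77.2 CPM in 24-month Low Isoleucine livers, 67.9 CPM in Low Amino Acid livers, 83.4 CPM in Control livers and 82.0 CPM in 6-month Control livers. Its highest liver stood at 92.1 CPM on Low Isoleucine, 425 CPM on Low Amino Acid and 1254 CPM on Control at 24 months, against 234 CPM on Control at 6 months. Il1r1 was called up with age in Control livers (1.42, SE 0.521, adjusted p = 0.0374) and down on Low Isoleucine (-2.04, SE 0.531, adjusted p = 0.0154), although the medians differed little. Il6ra, the interleukin-6 receptor, and Il1rn, the natural interleukin-1 antagonist, were called in neither comparison, with age differences of -0.38 and 0.65.

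Socs3, the feedback inhibitor of STAT3, lay between 7.30 and 24.2 CPM (median 10.5) in 24-month Low Isoleucine livers, between 7.25 and 72.3 CPM (median 10.4) in Low Amino Acid livers and between 5.47 and 164 CPM (median 18.4) in Control livers. The 6-month Control livers lay between 2.85 and 20.9 CPM (median 6.05), and 3 of 8 livers of 24-month Controls stood above all of them. It rose with age in Control livers by 2.59 (SE 0.525, adjusted p = 0.00057) and fell on Low Isoleucine by 1.89 (SE 0.511, adjusted p = 0.0191). Stat3 itself moved less in both comparisons. It lay between 141 and 221 CPM (median 172) in 24-month Low Isoleucine livers, between 151 and 342.5 CPM (median 204) in Low Amino Acid livers and between 123 and 567.5 CPM (median 277) in Control livers, against 113 to 163 CPM (median 142) in 6-month Control livers. Stat3 rose with age in Control livers by 1.08 (SE 0.178, adjusted p = 8.2e-05), with 7 of 8 livers above every 6-month Control liver, and fell on Low Isoleucine by 0.76 (SE 0.177, adjusted p = 0.0069). Cebpb, a transcription factor of the response, was called in neither, with an age difference of 0.10.

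Among the genes of metal handling, Steap4, a metalloreductase, lay between 75.4 and 278 CPM (median 104) in 24-month Low Isoleucine livers, between 91.4 and 2219 CPM (median 142) in Low Amino Acid livers and between 119 and 4195 CPM (median 313) in Control livers. The 6-month Control livers lay between 90.0 and 144 CPM (median 115). It rose with age in Control livers by 2.99 (SE 0.603, adjusted p = 0.000533), with 7 of 8 livers above every 6-month Control liver, and fell on Low Isoleucine by 2.86 (SE 0.600, adjusted p = 0.0032). The metallothionein gene Mt2, which encodes a zinc-binding protein, lay between 45.8 and 129.5 CPM (median 80.2) in 24-month Low Isoleucine livers, between 39.4 and 373 CPM (median 115) in Low Amino Acid livers and between 19.0 and 1009.9 CPM (median 141) in Control livers, against 18.1 to 78.7 CPM (median 54.7) in 6-month Control livers. Mt2 rose with age in Control livers by 2.30 (SE 0.556, adjusted p = 0.00234) and Mt1 by 1.98, while neither passed the test on Low Isoleucine, at -1.53 and -1.0.

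Hepcidin, the hormone that lowers iron export, is encoded by Hamp. It lay between 283 and 858 CPM (median 492) in 24-month Low Isoleucine livers, between 295 and 787 CPM (median 335) in Low Amino Acid livers and between 268 and 1432 CPM (median 665) in Control livers, against 132 to 749 CPM (median 258) in 6-month Control livers. Hamp rose with age in Control livers by 1.25 (SE 0.342, adjusted p = 0.00609) and was not called on Low Isoleucine, at -0.50. Its mouse duplicate Hamp2, which has the near-identical promoter printed above, lay between 24.8 and 865 CPM (median 153) in 24-month Low Isoleucine livers, between 10.7 and 776 CPM (median 138) in Low Amino Acid livers and between 3.5 and 349 CPM (median 143) in Control livers, against 48.4 to 835 CPM (median 514) in 6-month Control livers. Hamp2 was called in neither comparison, with fitted differences of -1.50 with age in Control livers (SE 0.809, adjusted p = 0.164) and 0.96 on Low Isoleucine. It was the lowest of the 33 genes in age difference and the highest in diet difference. The transcripts of the pair share 92.4% of their letters, so their counts are uncertain.

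**Figure D2:**
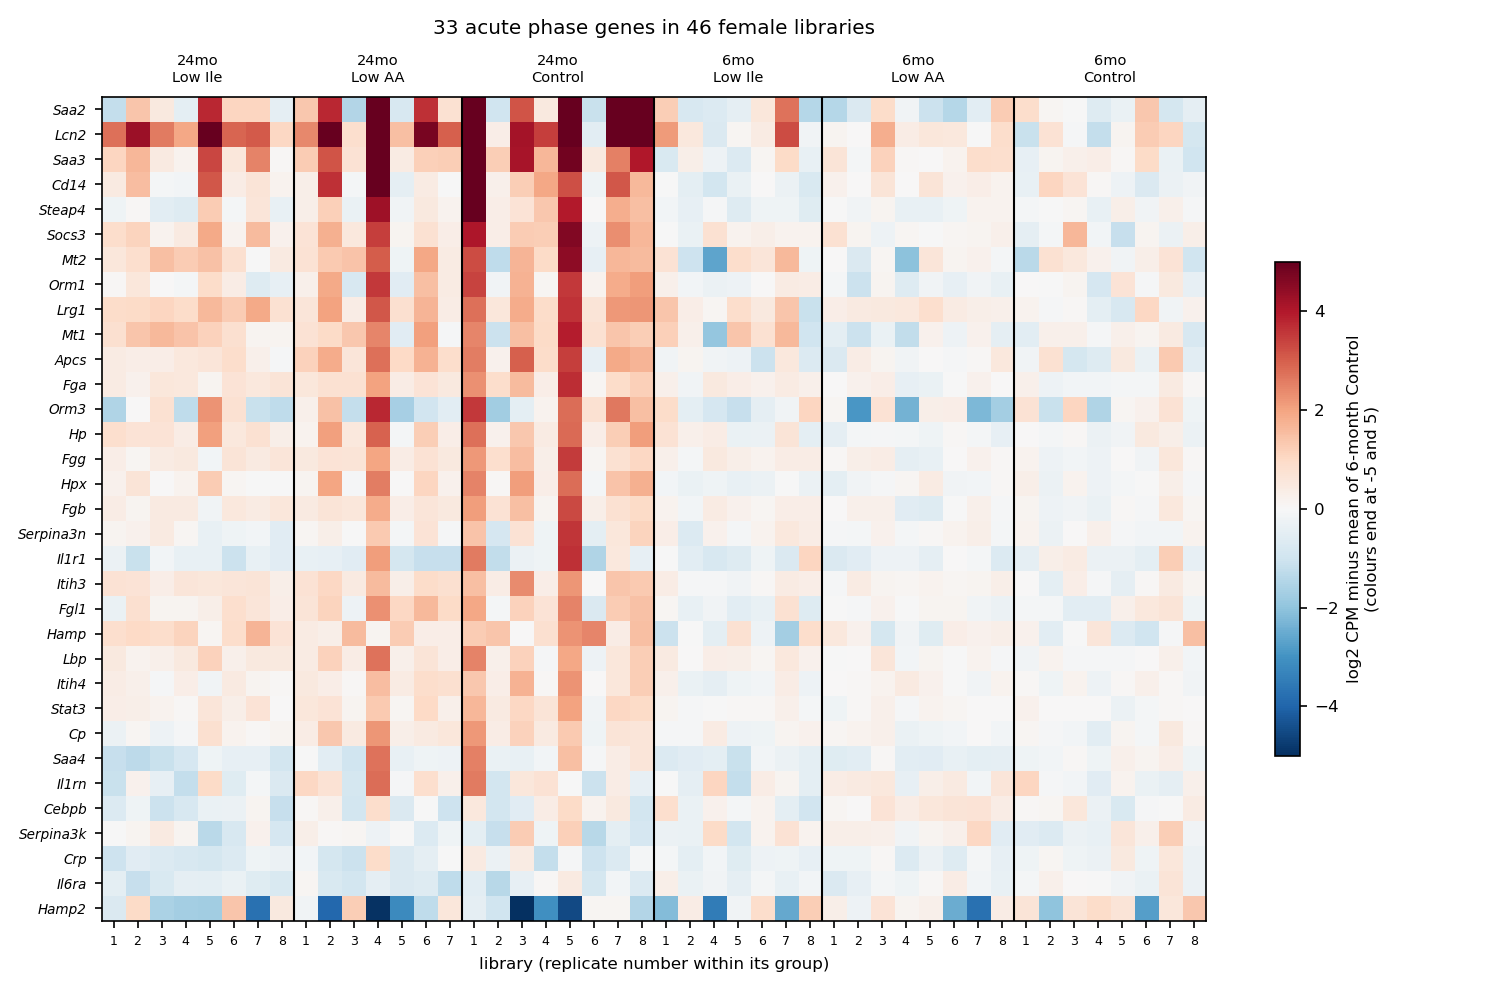
Level of 33 acute phase genes in 46 female libraries, as log2 CPM minus the mean of the 6-month Control libraries (colours end at -5 and 5). Columns are libraries by group and rows are genes by their age difference on Control, and the high columns are replicates 1 and 5 of the 24-month Control group and replicate 4 of the 24-month Low Amino Acid group.

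Animals of one group differed widely. In the 24-month Control group the number of genes of the 33 above every 6-month Control liver was 27, 7, 23, 9, 28, 2, 25 and 25 in replicates 1 to 8. Replicate 5 was the highest of its group in 20 of the 33 genes and replicate 1 in 9, while replicate 6 was the lowest in 19. The same count ran between 4 and 17 (median 9) in 24-month Low Isoleucine livers, where replicate 5, the shallowest library, had the 17. It ran between 3 and 29 (median 9) in 24-month Low Amino Acid livers. There replicate 4 had 29 and was the highest of its group in 29 of the 33 genes, and replicates 2 and 6 had 24 and 20. The 6-month groups had 0 to 12 on Low Isoleucine and 0 to 5 on Low Amino Acid. Leaving out Control replicate 5 moved the fitted fold of 9 of the 25 genes that rose with age on Control by over 1.5 times, to log2 values of 6.58 for Saa2, 5.67 for Lcn2, 1.94 for Socs3, 1.49 for Mt2, 1.25 for Mt1, 1.19 for Fga and 1.1 for Fgg. The other 2 lost their call, Serpina3n at 0.51 (adjusted p = 0.0895) and Il1r1 at 0.49 (adjusted p = 0.452). Without Control replicate 1 Saa3 stood at 3.38, Steap4 at 2.0 and Cd14 at 1.95. The other 23 genes that rose kept their call whichever single library was left out, and Il1r1 lost it in 7 such fits. By group medians, 8 of the 33 genes stood above the range of 6-month Control livers on Low Isoleucine at 24 months, 14 on Low Amino Acid and 23 on Control. Neither these counts nor the counts per library were made over all genes.

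Spread between libraries was therefore measured for itself. The median SD of log2 CPM over the 33 genes was 0.442 in 24-month Low Isoleucine livers, 1.03 in Low Amino Acid livers and 1.13 in Control livers. At 6 months it was 0.413 on Low Isoleucine, 0.273 on Low Amino Acid and 0.435 on Control. Over all genes tested the medians were 0.289, 0.272 and 0.365 at 24 months and 0.265, 0.215 and 0.270 at 6 months, in the same order of diets. The 24-month Control group had the widest spread for 25 of the 33 genes and the 24-month Low Amino Acid group for 7. How many of all genes were widest in each group was not counted. In 24-month Control livers the SD was 4.46 for Saa2, 3.28 for Lcn2, 2.39 for Hamp2, 2.04 for Saa3 and 1.93 for Cd14. Mt2 followed at 1.83, Il1r1 at 1.82 and Steap4 at 1.81.

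In a limma test of the distance of each library from its group median, all 33 genes spread wider in 24-month than in 6-month Control livers. The median difference was 0.62 log2 units over the 33 genes and 0.066 over all genes tested. Of the 33, 2 passed the adjusted threshold, against 0.151% of all genes tested. They were Serpina3n, with a difference in mean distance of 0.82 log2 units (SE 0.195, adjusted p = 0.0475), and Itih4, with 0.55 (SE 0.13, adjusted p = 0.0475), while 22 of the 33 had an unadjusted p under 0.05, as had 15.1% of all genes tested. All 33 spread less on Low Isoleucine than on Control at 24 months and 0 were called, as were 0% of all genes tested (smallest adjusted p of the 33 by limma 0.0829, with 21 at an unadjusted p under 0.05, against 10.2% of all genes tested). On Low Amino Acid 29 of the 33 spread less than on Control and 0 were called, against 0.00793% of all genes tested, with 8 at an unadjusted p under 0.05, against 9.32%. Without single libraries the age count was 0 or 1. Median differences in spread on Low Isoleucine and Low Amino Acid were -0.57 and -0.28 over the 33 genes. Over all genes tested they were -0.043 and -0.065. How many of all genes spread wider or less was not counted.

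**Figure D3:**
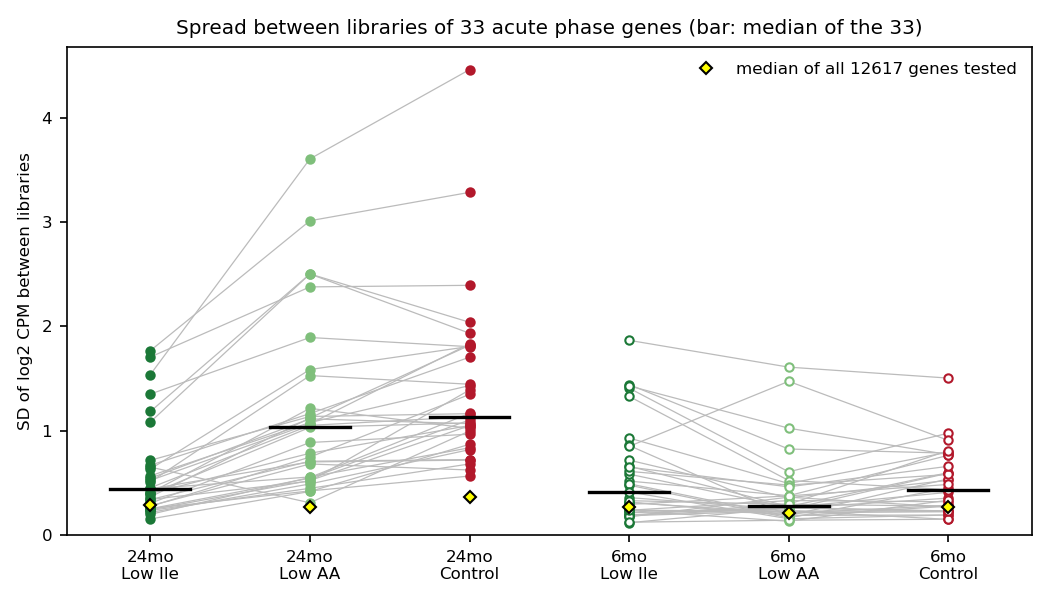
SD of log2 CPM between libraries for each of 33 acute phase genes (points, lines join a gene within an age) in 6 female groups, with a bar at the median of the 33 genes and a diamond at the median of all 12617 genes tested. The bar stands at 0.442, 1.03 and 1.13 for 24-month Low Isoleucine, Low Amino Acid and Control, and at 0.413, 0.273 and 0.435 at 6 months.

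On Low Isoleucine at 24 months the acute phase genes were lower than on Control. Of the 33 genes, 17 fell and 0 rose, while 3.78% of all genes tested fell. Their median fitted log2 fold change was -1.25, against -0.02 over all genes tested, and 32 of the 33 lay below 0. Saa2, Steap4, Saa3, Il1r1, Orm1, Socs3, Apcs and Saa4 fell most, and the 3 fibrinogen chains and hemopexin were also among the 17. The livers of the 2 groups overlapped for every one of the 33 genes, and overlap was not counted over all genes. The calls changed with the estimate of the spread. When only the 3 groups of 24 months were fitted, 1 of the 33 fell (Apcs, -1.72, adjusted p = 0.0409), against 0.821% of all genes tested, and Saa2 stood at -6.23 with an adjusted p of 0.072. With limma's voom and a spread for each group 0 fell, against 0.587%, and Saa2 stood at -3.66 (adjusted p = 0.191). Of the 17 genes, 12 kept their call whichever single library was left out. Without Control replicate 5 Saa2 stood at -5.24, Fga and Fgg at -0.74 each, Socs3 at -1.25, Il1r1 at -1.12 and Serpina3n at -0.55. Without Control replicate 1 Steap4 stood at -1.87 and Saa3 at -1.79, and without Low Isoleucine replicate 5 Saa2 stood at -7.23. Saa3 lost its call in 6 such fits, Cp without Control replicate 1 or Low Isoleucine replicate 1, Socs3 without Control replicate 1 or 5, and Serpina3n and Il1r1 without Control replicate 5.

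On Low Amino Acid at 24 months 0 of the 33 genes were called against Control, as against 0.753% of all genes tested in either direction (edgeR), and 9 had an unadjusted p under 0.05, as had 16.9% of all genes tested. The median difference was -0.48, and 27 of the 33 lay below 0. When replicate 4 alone was left out 9 of the 33 genes fell, against 1.08% of all genes tested. Saa3 was the single gene that differed between the restricted diets, lower by 3.25 with Low Isoleucine set against Low Amino Acid (SE 0.85, adjusted p = 0.0433), against 0.943% of all genes tested. That call was lost in 8 of the fits with 1 library left out, and without Low Amino Acid replicate 4 the difference was -0.00794 (adjusted p = 0.998). These diet comparisons share the Control or restricted livers with each other and with the age comparisons.

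**Figure D4:**
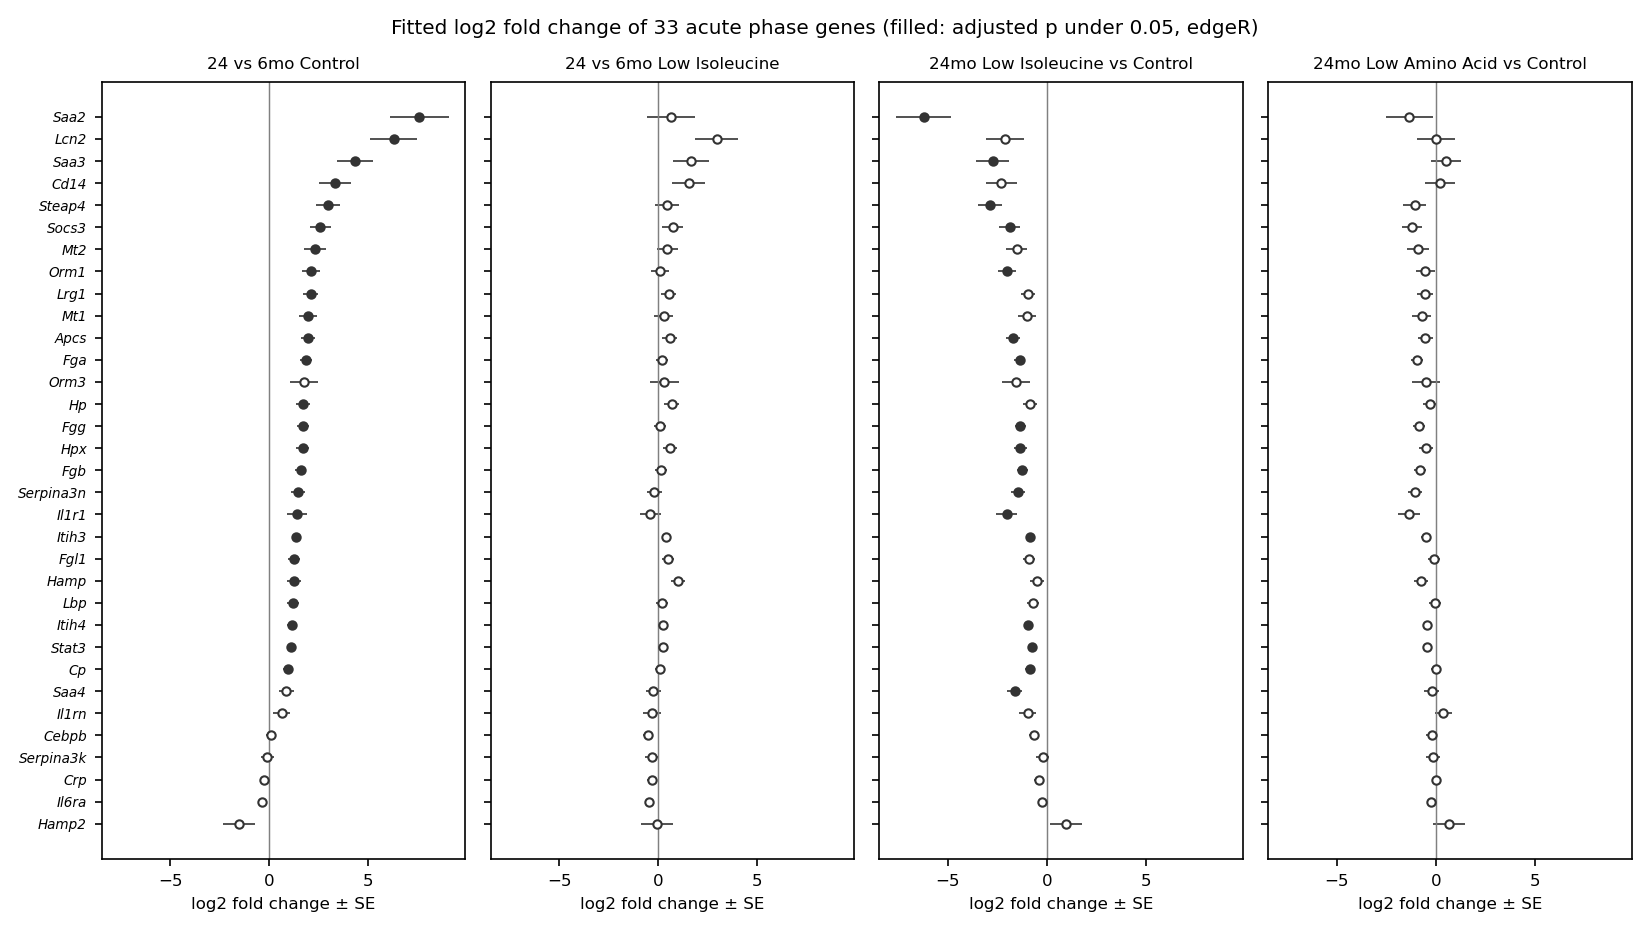
Fitted log2 fold change ± SE of 33 acute phase genes in 4 comparisons of female livers, with filled points for an adjusted p under 0.05 (edgeR). Filled points number 25 for 24 against 6 months on Control, 0 on Low Isoleucine, 17 for Low Isoleucine against Control at 24 months and 0 for Low Amino Acid against Control.

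The same age comparison was made within each restricted diet. On Low Isoleucine 0 of the 33 genes were called, against 7.21% of all genes tested in either direction, with a median difference of 0.27, 3 genes at an unadjusted p under 0.05 (25.1% of all genes tested) and a smallest adjusted p of 0.073 by edgeR. Lcn2 stood at 2.97 (SE 1.07, adjusted p = 0.076) and Hamp at 0.99 (SE 0.355, adjusted p = 0.073). Under Low Amino Acid, 10 of the 33 rose and 0 fell, against 1.08% of all genes tested that rose, with a median difference of 1.04. They were Saa2 (6.49), Lcn2 (5.89), Saa3 (4.37), Cd14 (3.39), Orm1 (1.97), Hp (1.6), Apcs (1.55), Hpx and Fgl1 (1.24 each) and Cp (1.01). On Low Amino Acid the 24-month livers all stood above the 6-month livers for Apcs and Cp. The same held for Fga, Fgb and Fgg, which were not called, and for Hpx on Low Isoleucine, also not called. How many of all genes separated in this way was not counted. Without Low Amino Acid replicate 4 only Lcn2 of the 10 was still called, at 4.35 (adjusted p = 0.0475), while Saa2 stood at 2.45, Cd14 at 1.31, Saa3 at 1.15 and Orm1 at 1.1.

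At 6 months no acute phase gene passed the test between diets. On Low Isoleucine against Control 0 of the 33 genes were called by edgeR, as against 0.0238% of all genes tested, and 0 had an unadjusted p under 0.05, as against 10.1%. On Low Amino Acid against Control 0 were called, as were 0% of all genes tested, with 0 at an unadjusted p under 0.05, against 8.06%. Between Low Isoleucine and Low Amino Acid 0 were called, against 0.0159%, with 1 at an unadjusted p under 0.05, against 9.95%. Saa2 at 6 months lay between 2.0 and 36.4 CPM (median 4.0) on Low Isoleucine, between 1.99 and 13.5 CPM (median 3.56) on Low Amino Acid and between 2.93 and 14.2 CPM (median 4.91) on Control. Whether the diet difference itself changed with age was tested too. For Low Isoleucine 0 of the 33 were called, as were 0% of all genes tested (smallest adjusted p of the 33 by edgeR 0.194, with 23 at an unadjusted p under 0.05, against 8.49% of all genes tested), and for Low Amino Acid 0 were called, as were 0% of all genes tested (smallest adjusted p 0.485 by edgeR, with 4 at an unadjusted p under 0.05, against 10.2%).

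Markers of other cells also differed between the groups. The summed level of 14 neutrophil markers lay between 3.63 and 199 CPM (median 14.0) in 24-month Low Isoleucine livers, between 6.51 and 532 CPM (median 10.3) in Low Amino Acid livers and between 9.47 and 860 CPM (median 63.9) in Control livers, against 3.83 to 10.02 CPM (median 7.95) in 6-month Control livers. All 13 tested neutrophil markers rose with age in Control livers, against 16.6% of all genes tested. On Low Isoleucine at 24 months 3 fell, against 3.78%, and none of the 14 was at 0 throughout a group. Macrophage markers summed to 175 to 1722 CPM in 24-month Low Isoleucine livers, 421 to 2006 CPM in Low Amino Acid livers and 369 to 3077 CPM in Control livers, against 361 to 873.5 CPM in 6-month Control livers, and 11 of 14 rose with age in Control livers while 1 fell. Of all genes tested, 16.6% rose and 11.4% fell with age on Control. Of 10 tested lymphocyte markers 8 rose with age on Control and 8 on Low Isoleucine. On Low Isoleucine 608 of the 12617 genes tested rose with age and 302 fell. Of the 13 neutrophil markers 1 rose with age there, and 7 rose on Low Amino Acid, where 1.08% of all genes tested rose. Of the 14 macrophage markers 3 rose and 1 fell with age on Low Isoleucine. On Low Amino Acid 0 of the 14 macrophage and 0 of the 10 lymphocyte markers were called with age. Of 8 tested hepatocyte markers 2 fell with age on Control, and their sum never went under 72305 CPM. The 5 highest neutrophil sums stood in libraries with differing numbers of acute phase genes above every 6-month Control liver. Low Isoleucine replicate 5 had 199 CPM and 17 such genes, Low Amino Acid replicates 2 and 4 had 532 and 353 CPM with 24 and 29 genes, and Control replicates 1 and 4 had 711 and 860 CPM with 27 and 9 genes. Control replicate 5, with 28 such genes, had a neutrophil sum of 35.1 CPM, above the 6-month Control range, and a macrophage sum of 369 CPM, the lowest of its group. Without these 5 libraries 25 of the 33 rose with age on Control, against 13.4% of all genes tested (Saa2 by 7.55, Lcn2 by 6.00, Orm1 by 1.99). In that fit 21 fell on Low Isoleucine at 24 months, against 2.58% of all genes tested, and 16 fell on Low Amino Acid, against 2.2%. The 5 libraries were picked by their values in these same data. They include Low Amino Acid replicates 2 and 4, the highest of that group by number of such genes. Control replicates 3, 5, 7 and 8, with 23, 28, 25 and 25 such genes, were kept, and Control replicates 1 and 4 were not. How far these counts depend on that choice was not tested. The 24-month Control livers kept in that fit still had neutrophil sums of 9.47 to 99.4 CPM. Replicates 3, 7 and 8 among them stood at 55.2, 72.5 and 99.4 CPM, above the 6-month Control range. The part of neutrophils, macrophages and lymphocytes in these results was not tested.

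Genes of the cytokine signalling upstream of the response were also measured. Of 33 tested, 16 rose and 1 fell with age in Control livers, where 16.6% of all genes tested rose and 11.4% fell. Irak3, a brake on interleukin-1 and Toll-like receptor signalling, averaged 18.2 ± 27.9 CPM in 24-month Control livers and 1.58 ± 0.434 CPM in 6-month Control livers (SD, n = 8 each) and rose by 3.51. Tnf rose by 2.36, with 1.68 ± 1.22 CPM at 24 and 0.315 ± 0.163 CPM at 6 months, and Tlr2 rose by 2.12, while the leukaemia inhibitory factor receptor gene Lifr fell by 0.58. On Low Isoleucine at 24 months, where 3.78% of all genes tested fell and 2.69% rose, 2 of these genes fell relative to Control, Tnfrsf1a by 0.52 and the shared receptor chain Il6st by 0.46. Tnf was not called there, at 1.95 ± 2.21 CPM in Low Isoleucine livers and 1.68 ± 1.22 CPM in Control livers (SD, n = 8 each). With age on Low Isoleucine 3 of the 33 signalling genes rose and 0 fell, where 608 of the 12617 genes tested rose and 302 fell. These were Tnf, Relb and Nfkb1, by 3.12, 1.96 and 0.40. Il6 transcripts were scarce, at 0.202 ± 0.25 CPM in 24-month and 0.0571 ± 0.0338 CPM in 6-month Control livers.

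Of 17 tested further reactants, 9 rose and 1 fell with age in Control livers, against 16.6% and 11.4% of all genes tested. The chemokine gene Cxcl1 rose by 4.40 and Tifa, an adaptor of NF-kB signalling, by 2.34. Relative to Control, 10 of the 17 fell on Low Isoleucine at 24 months, against 3.78% of all genes tested. Among them were Cxcl1, lower by 3.01, Tifa by 2.49 and the complement regulator C4bp by 1.01. C4bp averaged 299 ± 45.8 CPM in 24-month Low Isoleucine livers and 604 ± 195 CPM in Control livers (SD, n = 8 each). C4bp and Mbl1, a mannose-binding lectin, also fell on Low Isoleucine relative to Low Amino Acid, by 0.81 and 0.69. In that comparison 0.943% of all genes tested fell. Ccl2 rose with age on both restricted diets, by 2.79 on Low Isoleucine and 3.15 on Low Amino Acid.

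Negative reactants, plasma proteins whose synthesis falls in the acute phase, showed no common direction with age on Control. Of 14 tested, 3 rose and 4 fell with age in Control livers, against 16.6% and 11.4% of all genes tested. Serpina6, the corticosteroid carrier, fell by 0.97, Apom by 0.69 and the retinol carrier Rbp4 by 0.62, whereas transferrin, Trf, rose by 0.67. With Low Isoleucine at 24 months 1 rose and 4 fell, against 2.69% and 3.78% of all genes tested. The median difference was -0.22 over the 14 and -0.02 over all genes tested. Rbp4 rose by 0.51, and among those that fell were Fetub, by 0.73, and Trf, by 0.69. Of 14 tested genes of hepcidin control and iron handling, 4 rose and 1 fell with age in Control livers, against the same 16.6% and 11.4%. The feedback genes Smad6 and Smad7 rose by 0.63 and 0.53, Hfe by 0.43, and the ferritin heavy chain Fth1 fell by 0.36. Under Low Isoleucine at 24 months 0 of these 14 were called against Control by edgeR, with Bmp6, an inducer of hepcidin, at 0.72 (adjusted p = 0.0756).

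The authors' deposited tables hold all 37 genes in both sexes, as log2 fold changes with adjusted p-values and no values per animal. In the authors' deposited table for females 26 of the 37 rose in 24-month relative to 6-month Control animals, against 12.4% of all genes listed, and 13 fell on Low Isoleucine at 24 months, against 5.21%. Of the 4 genes without usable counts, Saa1 stood at 3.34, Orm2 at 3.38, Cebpd at 0.93 and Serpina3m at 0.17 with age in the authors' deposited table for females, and all but Serpina3m were called there. On Low Isoleucine at 24 months the authors' deposited table gives Saa1 -2.98 (adjusted p = 0.068), Orm2 -2.76 (adjusted p = 0.0331), Cebpd -0.66 and Serpina3m -0.22. On Low Amino Acid at 24 months the authors' deposited table for females calls 5 of the 37 lower, Cd14, Hpx, Orm1, Saa4 and Steap4, against 2.66% of all genes listed.

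That last count differs from the 0 given above. Across 11952 genes the fitted fold changes of that comparison and of Low Isoleucine against Control at 24 months each correlated with the authors' deposited table at r = 0.848. Plain differences of mean log2 CPM were nearer to the authors' deposited table when Low Amino Acid replicates 2 and 4 of 24 months were left out (r = 0.996, against 0.930 with all 7 libraries). The same held for Low Isoleucine replicates 2 and 5 of 24 months (r = 0.996, against 0.929). Genes are not independent replicates in these r. Without those 4 libraries, a choice made after seeing the data, 20 of the 33 genes fell on Low Amino Acid, against 8.06% of all genes tested, with Saa2 at -5.93 and Cd14 at -3.43. No source used here says which libraries entered the authors' deposited table.

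In males the authors' deposited table gives 14 of the 37 genes higher and 1 lower at 24 than at 6 months on Control. Of all genes listed, 8.33% were higher and 11.66% lower. Lcn2 stood at 5.06, Apcs at 2.03, Fgl1 at 1.98, Orm1 at 1.40, Fga at 1.31, Fgg at 1.29 and Fgb at 1.28, and Cebpb, the gene that was lower, at -0.93 in the authors' deposited table. Saa1, Saa2 and Saa3 were not called in males. The median over the 37 genes was 1.07 in males and 1.23 in females in the authors' deposited tables. On Low Isoleucine at 24 months 0 of the 37 were called lower in males, against 0.0282% of all genes listed, and on Low Amino Acid 0, against 0.0169%, although 34 and 31 of the 37 lay below 0, with medians of -0.58 and -0.48 in the authors' deposited table. At 6 months on Low Isoleucine 2 of the 37, Crp and Il1r1, were higher in males and Lrg1 was lower. Of all genes listed, 9.35% were higher and 11.75% lower in that comparison. Hamp2 stood at -2.08 with age in females and at 3.10 in males in the authors' deposited tables, and was called in neither. The difference between the sexes was not tested.

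**Figure D5:**
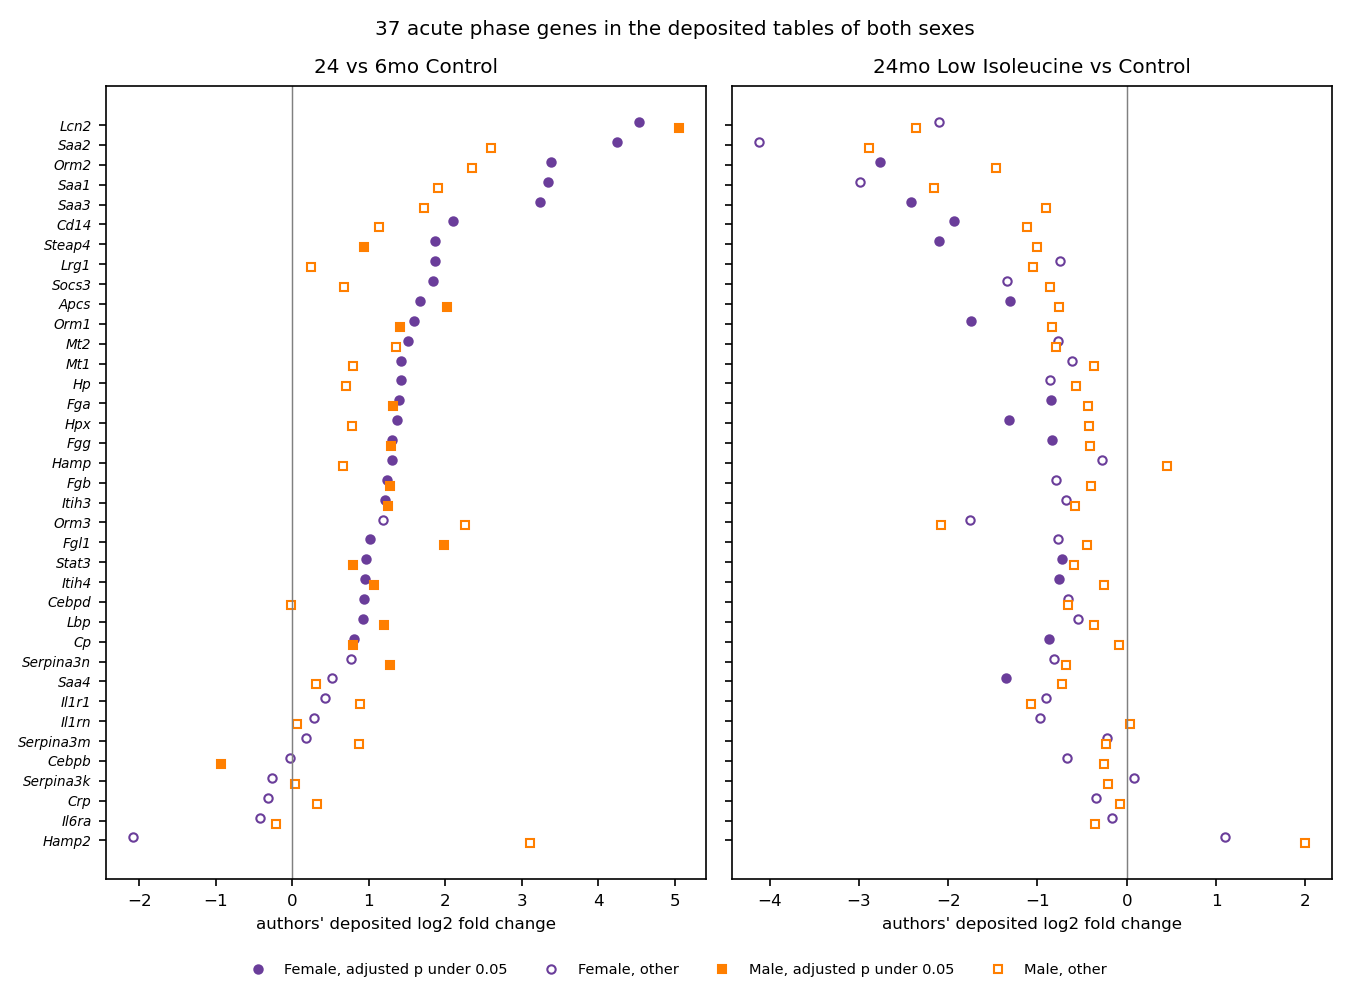
Authors' deposited log2 fold changes of 37 acute phase genes in females (circles) and males (squares) for 24 against 6 months on Control and for Low Isoleucine against Control at 24 months, with filled symbols for an adjusted p under 0.05. Filled symbols number 26 in females and 15 in males for age, and 13 in females and 0 in males for diet.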

How the data were processed

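Stranded polyadenylated RNA libraries of mouse liver were sequenced over 2 lanes that were merged before expression was estimated, per the labels' protocols. The authors deposited estimated counts per gene, not normalized. They also deposited a table for each sex of their own comparisons, with log2 fold changes and with p-values before and after Benjamini-Hochberg adjustment. The submitters' processing notes name edgeR, limma, R 3.4.3 and GRCm38.p5 with no roles, and no source used here gives the aligner or the model. The count table is misaligned: 17275 lines are filled under all columns and 34637 are not, and on the line of Alb the median count was 1905880 under female and 75 under male columns. The 45 male columns were therefore not used, and males enter only through the deposited fold changes.

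Estimated counts of 46 female libraries were rounded, filtered by filterByExpr and scaled by TMM. The quasi-likelihood test of edgeR 4.0.16 (R 4.3.3) was applied to 1 fit of the 6 groups with a mean each. Tests are two-sided, adjusted over 12617 genes and called at an adjusted p under 0.05. Spread was tested with limma 3.58.1 on absolute deviations of log2 CPM (prior count 2) from the group median. The fits were also run on simulated data, and the outcome is not given here. Alternatives used RLE scaling, no filter, DESeq2 1.42.0, limma's voom, fits by age and other sets of libraries. Tables were joined with Python 3.11.15, numpy 2.4.6 and pandas 2.3.3. Gene positions and transcripts are from GENCODE M21, which matched 17250 of the 17275 identifiers, and promoters are from RefSeq. Replicate numbers are in accession order and pair nothing. Some sample titles share a number within a group, with no meaning given for it. The fits did not use that number and treated every library as independent. Labels do not say how animals were housed, so p-values measure the spread between these samples.

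The genes and lists were chosen with earlier results of these data known. Values are given for up to 8 called genes with the largest change per comparison and for the 8 with the largest SD in 24-month Control livers. For the other lists they are given for up to 3 called genes per comparison. One gene that this rule names is not reported here. Proteins were not used here.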

Additional observations from a re-analysis of the deposited data

Results flagged for a closer look

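Of 198 sets of values (33 acute phase genes in 6 groups), 15 held a library farther from the others than Dixon's 95% limit allows on the log2 scale. Chance gives that in about 1 in 20 groups, and the genes of a library are not independent. Of the 15, 8 were the same library, replicate 4 of the 24-month Low Amino Acid group, which was highest at 376 CPM for Saa3, 1775 CPM for Saa4, 15872 CPM for Fga, 13639 CPM for Fgb, 10214 CPM for Fgg, 2219 CPM for Steap4, 1098 CPM for Lbp and 425 CPM for Il1r1. Its neutrophil markers summed to 353 CPM. Replicate 5 of the 24-month Low Isoleucine group, the library of 7.82 M counts, was highest at 10787 CPM for Hp, 3006 CPM for Cp and 368 CPM for Lbp, and its neutrophil markers summed to 199 CPM. At 6 months, replicate 3 of the Low Amino Acid group was highest at 282 CPM for Saa4 and 250 CPM for Lbp, replicate 5 of that group at 164 CPM for Lrg1, and replicate 8 of the Low Isoleucine group at 214 CPM for Il1r1. No library of the 24-month Control group lay outside the limit. Replicates 1 and 5 of that group, the highest in 9 and 20 of the 33 genes, were high together. A limit on the distance of a single library can miss such a pair.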

How the results depend on the processing

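Counts of acute phase genes called were recomputed under other settings. For 24 against 6 months on Control they stayed between 20 (voom) and 27 of 33, and between 24 and 27 with 1 library left out. For Low Isoleucine against Control at 24 months 17 became 1 in a fit of the 3 groups of that age and 0 with voom, and lay between 16 and 24 otherwise and between 14 and 20 with 1 library left out. Low Amino Acid set against Control at 24 months had 0 genes called, and lay between 0 and 9 with 1 library left out. It had 16 without 5 libraries high in neutrophil genes, and 20 without 4 libraries that seem not to enter the deposited table. The 5 were picked by their values in these data, and the 4 were chosen after seeing the data. For Low Isoleucine against Low Amino Acid at 24 months 1 became 0 without the filter, without those 5 or 4 libraries, in the fit by age and with voom, and 5 with DESeq2, and lay between 0 and 5 with 1 library left out. For 24 against 6 months on Low Amino Acid 10 became 0 without the 5 or the 4 libraries, 14 with DESeq2 and voom, and lay between 1 and 15 with 1 library left out. On Low Isoleucine 0 became 1 with the left-out library put back and 2 with DESeq2, and lay between 0 and 1 with 1 left out. The change of diet difference with age became 1 without the 5 libraries on either diet, 2 with DESeq2 on Low Isoleucine and 6 without the 4 libraries on Low Amino Acid, and stayed at 0 with 1 library left out. Spread calls lay between 0 and 1 with 1 library left out for age on Control and for Low Isoleucine, and at 0 for Low Amino Acid. Diet comparisons at 6 months gave 0 throughout. Saa3 between the restricted diets turned to 0.18 (adjusted p = 0.882) without the 5 libraries and to 0.0778 (adjusted p = 0.974) without the 4. Cd14 with age on Low Amino Acid turned to -0.26 without the 5 (adjusted p = 0.92) and without the 4 (adjusted p = 0.957). These come from leaving out 1 or both of Low Amino Acid replicates 2 and 4. No paired analysis was possible because the replicate numbers follow accession order and pair no animals. Limits are 7 or 8 animals a group, aged Control livers that spread more than a shared estimate assumes, near-identical copies among the genes, and male libraries known only through the deposited table.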
